A study of Mus musculus with 31 samples.

Results

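The genes examined here are 39 genes of DNA replication and mitosis, taken as 1 module and followed through 4 comparisons of mutant with wild-type (WT) mouse cells on Affymetrix mouse genome arrays. Of the 39, 38 could be matched to a probe set annotated to 1 gene, out of 18193 genes with such a probe set on the array. Ccnb1, which encodes cyclin B1, had no such probe set in the annotation table and was not analysed here. By role, the 38 genes were 17 replication genes (origin licensing, the replicative helicase, the sliding clamp and nucleotide synthesis), 5 regulators of entry into S phase (E-type cyclins and E2F factors, called G1/S regulators below), and 16 mitosis genes. Where a gene had several probe sets, the one brightest on average in the experiment stood for it, and the gene counted as measured where the highest sample reached log2(100), the intensity minimum of the study. Under that minimum fell Orc1, Tyms and E2f2 in the Crebbp and Ep300 experiments, which left 35 measured genes in each, and Orc1, Cdc45, Gins1, Tyms and E2f2 in fibroblasts, which left 33. All 38 were measured in the Cdkn1a experiment.

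Fetal liver hematopoietic stem cells (FL HSC) were sorted as Lin-, Sca-1+, AA4.1+ and c-Kit++ cells from embryos at 14.5 days post coitus, and each sample combined the cells of 15 embryos. Crebbp encodes a histone acetyltransferase and transcriptional coactivator, Ep300 encodes its close paralog, and Cdkn1a encodes the cyclin-dependent kinase inhibitor p21. Crebbp+/- FL HSC (2 samples) were set beside 2 WT samples, and Ep300+/- FL HSC (2 samples) beside 2 other WT samples. These mice were C57BL/6 with WT littermates as controls, and each of those samples was read on 2 arrays as technical replicates. Cdkn1a-/- FL HSC (4 samples, called null 1 to 4) were compared with 3 WT samples on a mixed B6/129Sv background, with 1 array a sample. The null line and its B6129SF2 controls came from separate purchased stocks, so the allele and the stock cannot be told apart. Mouse embryonic fibroblasts (MEF) came from C57BL/6 embryos at 14.5 days post coitus. They were compared between Crebbp+/- and WT, with 1 embryo of each genotype from each of 4 litters. The mutations are germline, so every cell of a mutant embryo carried them. The values were GCRMA log2 intensities normalized apart in the 4 experiments, so a level is compared only within an experiment. Unless stated otherwise, a level or a change is on that log2 scale.

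Replication origins are licensed in G1, when the origin recognition complex (Orc1) with Cdc6 and Cdt1 loads the Mcm helicase, which Mcm10, Cdc45 and the GINS complex then activate. E2F factors induce many genes of licensing, DNA synthesis and nucleotide supply as cells enter S phase, while genes of mitosis are mostly expressed in G2 and M phase and are commonly controlled through CHR and CCAAT elements in their promoters. CREBBP and EP300 can act as coactivators of E2F, p21 holds back cyclin-dependent kinases, and fetal liver HSC, unlike most adult HSC, cycle actively.

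The promoters of the replication and the mitosis genes differ in the short elements they hold, and 3 of each are shown because the results below set these lists against each other. RefSeq promoters of assembly GRCm38.p6, each 300 bases long (250 before and 50 after the gene's start), were found for 15 of the 17 replication genes, 4 of the 5 G1/S regulators and 13 of the 16 mitosis genes. On both strands they were searched for the E2F words TTTCCCGC, TTTGGCGC, TTTCGCGC and TTTGCCGC, for the CHR word TTTGAA and for the CCAAT box CCAAT, and matches of different words may overlap. An E2F word was in 7 of 15 replication promoters (46.7%), 1 of 4 promoters of G1/S regulators (25.0%) and 1 of 13 mitosis promoters (7.69%), beside 2.26% of all 32851 promoters of the table. A CHR word together with a CCAAT box was in 10 of 13 mitosis promoters (76.9%), 2 of 15 replication promoters (13.3%) and 1 of 4 promoters of G1/S regulators, beside 6.95% of all promoters. A CHR word alone or with a CCAAT box was in 17.9% of all promoters and a CCAAT box in 37.4%. These are letter matches, described without a test. The first 3 replication genes in list order that held an E2F word were Mcm3 (chr1:20820263-20820562, minus strand), Mcm5 (chr8:75109259-75109558, plus strand) and Mcm6 (chr1:128359656-128359955, minus strand), all helicase subunits. Each is written 5′ to 3′ along the gene, with the E2F words in capitals, and in Mcm5 and Mcm6 2 words on opposite strands overlap in 1 run of capitals. The CCAAT boxes that these 3 promoters also hold were left in lower case.
Mcm3: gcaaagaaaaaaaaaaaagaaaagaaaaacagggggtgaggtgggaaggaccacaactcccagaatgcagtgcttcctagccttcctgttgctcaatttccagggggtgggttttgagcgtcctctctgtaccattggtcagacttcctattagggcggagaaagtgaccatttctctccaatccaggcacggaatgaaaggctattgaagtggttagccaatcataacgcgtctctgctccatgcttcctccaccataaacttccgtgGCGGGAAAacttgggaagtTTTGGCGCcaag
Mcm5: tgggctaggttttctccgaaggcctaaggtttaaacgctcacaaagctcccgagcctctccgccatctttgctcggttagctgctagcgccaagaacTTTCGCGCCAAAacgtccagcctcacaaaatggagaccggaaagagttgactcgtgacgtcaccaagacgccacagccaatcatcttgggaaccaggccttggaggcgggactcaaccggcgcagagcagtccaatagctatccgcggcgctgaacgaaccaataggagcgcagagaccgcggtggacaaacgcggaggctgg
Mcm6: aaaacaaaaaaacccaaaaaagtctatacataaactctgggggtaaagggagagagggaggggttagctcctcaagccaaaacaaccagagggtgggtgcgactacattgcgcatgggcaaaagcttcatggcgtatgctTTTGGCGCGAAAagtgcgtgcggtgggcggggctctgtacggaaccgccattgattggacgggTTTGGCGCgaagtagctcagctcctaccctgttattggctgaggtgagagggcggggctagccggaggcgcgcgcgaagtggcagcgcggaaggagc
The first 3 mitosis genes that held both a CHR word and a CCAAT box were Ccnb2 (chr9:70421505-70421804, minus strand), which encodes cyclin B2, Cdk1 (chr10:69352863-69353162, minus strand), the kinase that drives entry into mitosis, and Plk1 (chr7:122159185-122159484, plus strand), a mitotic kinase. Here the capitals mark CHR words and CCAAT boxes, and an E2F word that the Cdk1 promoter also holds was left in lower case.
Ccnb2: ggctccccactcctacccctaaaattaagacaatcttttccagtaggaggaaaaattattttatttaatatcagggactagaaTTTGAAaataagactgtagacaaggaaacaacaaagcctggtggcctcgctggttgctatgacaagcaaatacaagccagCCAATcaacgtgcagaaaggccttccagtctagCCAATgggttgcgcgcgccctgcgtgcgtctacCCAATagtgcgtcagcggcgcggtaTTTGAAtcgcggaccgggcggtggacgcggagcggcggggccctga
Cdk1: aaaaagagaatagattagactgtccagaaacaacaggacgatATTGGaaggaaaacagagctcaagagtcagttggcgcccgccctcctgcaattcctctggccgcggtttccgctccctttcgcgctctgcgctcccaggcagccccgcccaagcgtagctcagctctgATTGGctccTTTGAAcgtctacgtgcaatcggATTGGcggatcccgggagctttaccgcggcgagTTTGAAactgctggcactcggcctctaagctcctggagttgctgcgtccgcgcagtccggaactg
Plk1: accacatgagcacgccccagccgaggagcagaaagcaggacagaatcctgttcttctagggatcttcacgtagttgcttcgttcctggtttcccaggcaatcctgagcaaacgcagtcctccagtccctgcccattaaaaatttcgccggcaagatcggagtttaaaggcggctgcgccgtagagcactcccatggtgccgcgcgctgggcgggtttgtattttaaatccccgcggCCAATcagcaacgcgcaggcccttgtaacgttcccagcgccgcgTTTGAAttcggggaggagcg

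The sorted cells carried the markers of their label, with 1 library standing apart. All 7 matched HSC marker genes reached the minimum in each FL HSC experiment and all 8 fibroblast genes did in MEF. Between 11199 and 19522 probe sets reached log2(100) on an FL HSC array and 14380 to 14684 on a MEF array. WT sample 3 of the Cdkn1a experiment had summed levels of 13.6 for erythroid, 16.4 for hepatocyte and 13.5 for macrophage genes, against at most 6.33, 11.7 and 9.87 in the other 6 samples. The changes of the named module genes on their brightest probe sets are therefore also given without it. Hepatocyte genes still differed then, with sums of 8.66 and 8.77 in WT samples 2 and 1 and 9.61 to 11.7 in the nulls, and their part in the results was not tested. In the Crebbp FL HSC experiment 4 of 6 hepatocyte genes reached the minimum, with summed levels of 5.47 to 9.66 in WT and 8.14 to 8.69 in Crebbp+/- samples, and their part in the results below was not tested. In the Ep300 experiment no hepatocyte gene reached it. The inactivated genes themselves were called nowhere. Crebbp differed by 0.07 in Crebbp+/- FL HSC (standard error 0.14, adjusted p = 0.803), with 1 of 2 pairs lower, and, on the same probe set, by -0.79 in MEF (standard error 0.073, adjusted p = 0.417, lower in 4 of 4 litters), Ep300 by -0.10 in Ep300+/- FL HSC (standard error 0.10, lower in 2 of 2 pairs), and Cdkn1a by -1.66 in Cdkn1a-/- FL HSC (standard error 0.64, adjusted p = 0.648, all 4 nulls below the WT mean). On this probe set, the only one of Crebbp examined, the level thus did not set the FL HSC libraries labelled Crebbp+/- apart from WT. Their genotype is taken here from the label. In all these bulk samples, fewer cells of a type and less RNA per cell cannot be told apart.

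In the FL HSC labelled Crebbp+/-, no replication, G1/S or mitosis gene was called, a call being a limma adjusted p under 0.05 with a fold over 1.5. Of the 13332 probe sets tested, 51 (0.383%) were called, and 3199 had an unadjusted p under 0.05, as did 3 of the 35 measured genes. The levels of 26 genes were higher and of 9 lower in the mutant, with a median difference of 0.084 beside 0.048 over all probe sets tested. The mutant was higher in both pairs for 19 of 35 genes, against 39.3% of all probe sets, and both mutant samples lay above both WT samples for 10 of 35, against 16.1%. A pair is the WT and the mutant pool of the same number.

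Kif11, the kinesin that pushes spindle poles apart, showed the largest difference among the brightest probe sets of the module. It measured 8.95 and 8.59 in the WT pools and 9.57 and 9.30 in the Crebbp+/- pools. Both mutant pools were higher than both WT pools, by 0.67 on average (standard error 0.12, adjusted p = 0.0731), which misses the threshold. Its dimmer probe sets differed by 0.51 (standard error 0.15, adjusted p = 0.143) and by -0.012 (standard error 0.16, adjusted p = 0.976). The probe set with -0.012 measured 6.31 and 6.17 in the WT pools and 6.06 and 6.39 in the Crebbp+/- pools. All these levels lay below the intensity minimum, so by the rule used here it was not measured in this experiment. It was tested through the joint fit, as its highest level in the Ep300 experiment was 7.09. Kif11 passed with a variance trend in limma (adjusted p = 0.0162), and over the other limma alternatives its adjusted p lay between 0.0582 and 0.581. The paired test of the methods, which tested 4 genes of the module after a filter on spread, called Kif11 before adjustment and none after it. Its promoter holds 1 CHR word and 1 CCAAT box.

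Among the licensing and helicase genes, 11 of 15 measured replication genes were higher and 4 lower, and the list median was 0.11. That median stood beside 0.048 over all probe sets. It was 0.057 without pair 1 and 0.065 with samples centred, beside 0.062 and 0.0051 over all probe sets in those fits. Cdc6, the ATPase that helps to load the Mcm helicase, measured 7.80 and 7.90 in WT and 8.20 and 8.18 in Crebbp+/- pools, a difference of 0.35 (standard error 0.11, adjusted p = 0.147). Cdc45, which forms the active helicase with Mcm and GINS, measured 7.71 and 7.55 in WT and 7.95 and 7.84 in Crebbp+/- pools, a difference of 0.27 (standard error 0.10, adjusted p = 0.204). For both genes the genotypes did not overlap, although neither difference passed. Mcm2 had the lowest difference of the list. It measured 10.35 and 11.04 in WT and 10.30 and 10.72 in Crebbp+/- pools, a difference of -0.19 (standard error 0.12, adjusted p = 0.406), and its other probe set differed the other way, by 0.24 (standard error 0.18, adjusted p = 0.484). The pools differed in Mcm2 by more than the genotypes, with pool 2 above pool 1 by 0.69 in WT and 0.42 in the mutant. The same held for Mcm5 (0.86 and 0.75) and the licensing factor Cdt1 (0.79 and 0.68). Over the module, the mean difference between pools was larger than that between genotypes in 23 of 35 genes, with median sizes of 0.24 and 0.13.

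Rrm1, the large subunit of ribonucleotide reductase, which makes deoxyribonucleotides, measured 9.62 and 9.52 in WT and 9.82 and 9.78 in Crebbp+/- pools, a difference of 0.23 (standard error 0.10, adjusted p = 0.255). Its partner Rrm2, the subunit whose level follows the cell cycle, measured 12.72 and 12.86 in WT and 12.74 and 12.88 in the mutant, a difference of 0.023 (standard error 0.099, adjusted p = 0.916). Pcna, the sliding clamp of DNA polymerases, measured 12.39 and 12.23 in WT and 12.51 and 12.38 in the mutant, a difference of 0.13 (standard error 0.10, adjusted p = 0.475). On these probe sets only Rrm1 had genotypes that did not overlap. Dimmer probe sets gave larger differences. For Rrm1 one measured 7.11 and 5.62 in WT and 7.87 and 6.28 in the mutant, with overlap between the genotypes and a difference of 0.71 (standard error 0.11, adjusted p = 0.0620). For Rrm2 one measured 7.15 and 6.23 in WT and 7.42 and 7.22 in the mutant, a difference of 0.63 (standard error 0.19, adjusted p = 0.146), and the other differed by 0.18 (standard error 0.11, adjusted p = 0.403).

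The G1/S regulators split 2 higher and 2 lower, with a median of -0.064. Ccne2, an E-type cyclin that activates Cdk2 at the start of S phase, measured 7.67 and 8.07 in WT and 8.17 and 8.14 in Crebbp+/- pools, a difference of 0.28 (standard error 0.20, adjusted p = 0.452). E2f8, an atypical E2F that represses E2F targets, measured 9.15 and 9.52 in WT and 9.19 and 9.18 in the mutant, a difference of -0.15 (standard error 0.14, adjusted p = 0.576). WT pool 2 alone carried the higher E2f8 level, while both mutant levels of Ccne2 lay above both WT levels.

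Mitosis genes were higher in 13 and lower in 3 of 16, with a median of 0.0925, and the share differed between pairs. In pair 1, 8 of 16 were higher in the mutant (median -0.012) and in pair 2, 15 of 16 (median 0.14). Mutant pool 2 held the highest of the 4 levels for 12 of the 16 genes. Plk1 shows the pattern, with 6.68 and 6.66 in WT and 6.82 and 7.38 in Crebbp+/- pools, a difference of 0.42 (standard error 0.17, adjusted p = 0.212). Aurka, a kinase of the spindle poles, measured 7.82 and 8.20 in WT and 7.98 and 8.49 in the mutant, a difference of 0.22 (standard error 0.10, adjusted p = 0.271). The proliferation marker Mki67 had the lowest difference, -0.14 (standard error 0.14, adjusted p = 0.603), with 11.54 and 11.56 in WT and 11.17 and 11.65 in the mutant. Cdk1 measured 11.52 and 11.26 in WT and 11.40 and 11.55 in the mutant, a difference of 0.08 (standard error 0.14, adjusted p = 0.768). For Aurka, Mki67 and Cdk1 the genotypes overlapped. A dimmer probe set of Cenpa, which encodes the centromeric histone, differed by -0.73 (standard error 0.34, adjusted p = 0.275), with WT pool 1 at 7.07 and the other 3 samples between 5.62 and 5.65.

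Genes of the same processes outside the module were tested from lists of 44 other replication genes (41 measured), 57 other mitosis genes (54 measured) and 12 other E2F and pocket protein genes (11 measured). None was called in Crebbp+/- FL HSC, and 22, 33 and 8 of them were higher, with medians of 0.011, 0.07 and 0.02. Those with the smallest p were Orc2, an origin recognition subunit (0.46, standard error 0.11, adjusted p = 0.100), Fbxo5, an inhibitor of the anaphase-promoting complex (0.37, standard error 0.11, adjusted p = 0.138), and Lin54, the subunit through which the MuvB complex binds CHR elements (-0.56, standard error 0.11, adjusted p = 0.0826).

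**Figure D1:**
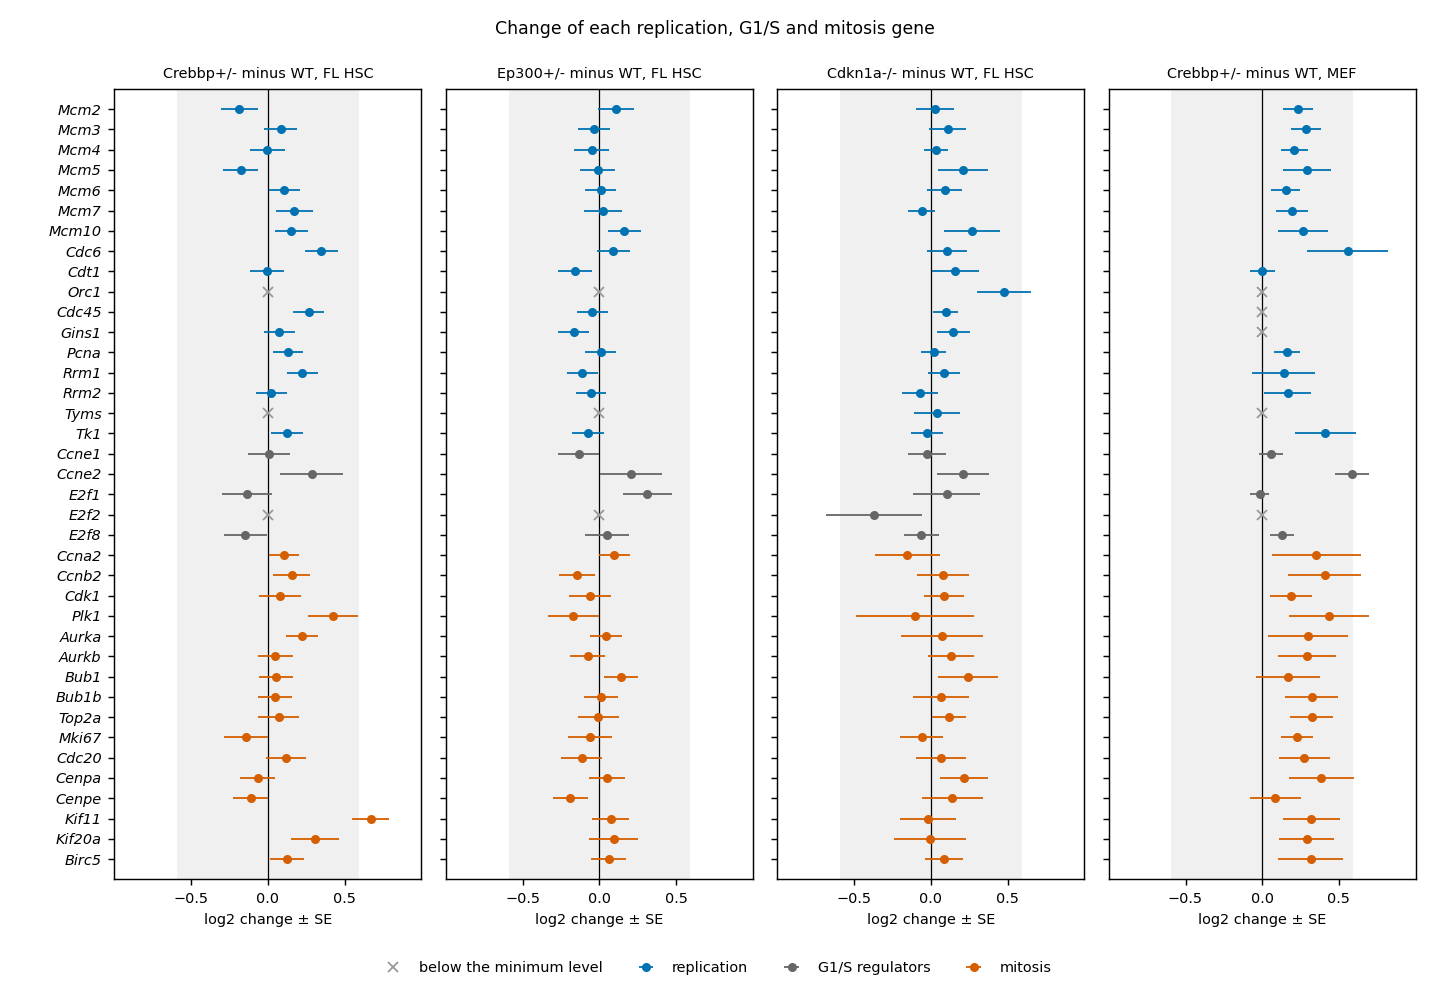
The log2 change ± standard error (limma) of each gene is plotted on the horizontal axis for the 4 comparisons, with replication genes in blue, G1/S regulators in grey and mitosis genes in orange. The shaded band spans a fold of 1.5 either way, a cross at 0 marks a gene below the minimum level and carries no value, and Kif11 in Crebbp+/- FL HSC is the only point beyond the band, while in MEF 32 of 33 points lie right of 0.

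In Ep300+/- FL HSC the module was split evenly. Of 35 measured genes 17 were higher and 18 lower, all within 1.5-fold, with a median of -0.0065 beside -0.016 over all probe sets tested. No gene and 0 of 13332 probe sets (0%) were called by limma. At an unadjusted p under 0.05 there were 570 probe sets and 0 genes of the module. The mutant was higher in both pairs for 9 genes (24.2% of all probe sets) and lower in both for 15 (30.4%).

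The genes with the smallest p came from all 3 lists. E2f1, the activator of S-phase genes, measured 7.86 and 8.05 in WT and 8.33 and 8.21 in Ep300+/- pools, a difference of 0.31 (standard error 0.16). Gins1, a subunit of the GINS complex, measured 10.62 and 10.50 in WT and 10.46 and 10.32 in the mutant, a difference of -0.17 (standard error 0.10). Cenpe, the kinesin that links kinetochores to microtubules, measured 8.86 and 8.87 in WT and 8.69 and 8.66 in the mutant, a difference of -0.19 (standard error 0.11). In each of these 3 the genotypes did not overlap. Over the module both mutant samples lay above both WT samples for 3 of 35 genes (14.1% of all probe sets) and below for 9 (18.6%), and no adjusted p in this comparison was below 0.99995. Mcm10 measured 8.35 and 8.65 in WT and 8.44 and 8.89 in the mutant (0.16, standard error 0.11), Cdt1 10.71 and 10.80 against 10.46 and 10.74 (-0.16, standard error 0.11), and the checkpoint kinase Bub1 9.60 and 9.50 against 9.67 and 9.71 (0.14, standard error 0.11). The lowest G1/S regulator was Ccne1, a further E-type cyclin, with 8.14 and 8.18 in WT and 8.03 and 8.01 in the mutant (-0.14, standard error 0.13).

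Replication and mitosis lists had medians of -0.035 (6 of 15 higher) and 0.0013 (8 of 16 higher), and the 4 G1/S regulators 0.13 (3 higher). In the other lists 20 of 41 replication, 26 of 53 mitosis and 7 of 10 E2F and pocket protein genes were higher. Their smallest p belonged to Wdhd1, a replisome protein (0.41, standard error 0.10), Anln, which builds the cleavage furrow (-0.41, standard error 0.14), and Lin54 (-0.14, standard error 0.11). None of these was called.

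The effects of the Crebbp and Ep300 mutations were compared directly in the joint fit. No gene of the module and 0 of 13332 probe sets (0%) differed between the effects after adjustment. Kif11 came first, with changes of 0.67 and 0.073 and a difference of effects of 0.60 (standard error 0.17, adjusted p = 0.245). Plk1 (0.42 and -0.17, difference 0.60, standard error 0.23, adjusted p = 0.336) and Rrm1 (0.23 and -0.11, difference 0.34, standard error 0.14, adjusted p = 0.358) followed. The Crebbp effect was the higher for 27 of 35 genes, with a median difference of 0.12 beside 0.063 over all probe sets.

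**Figure D2:**
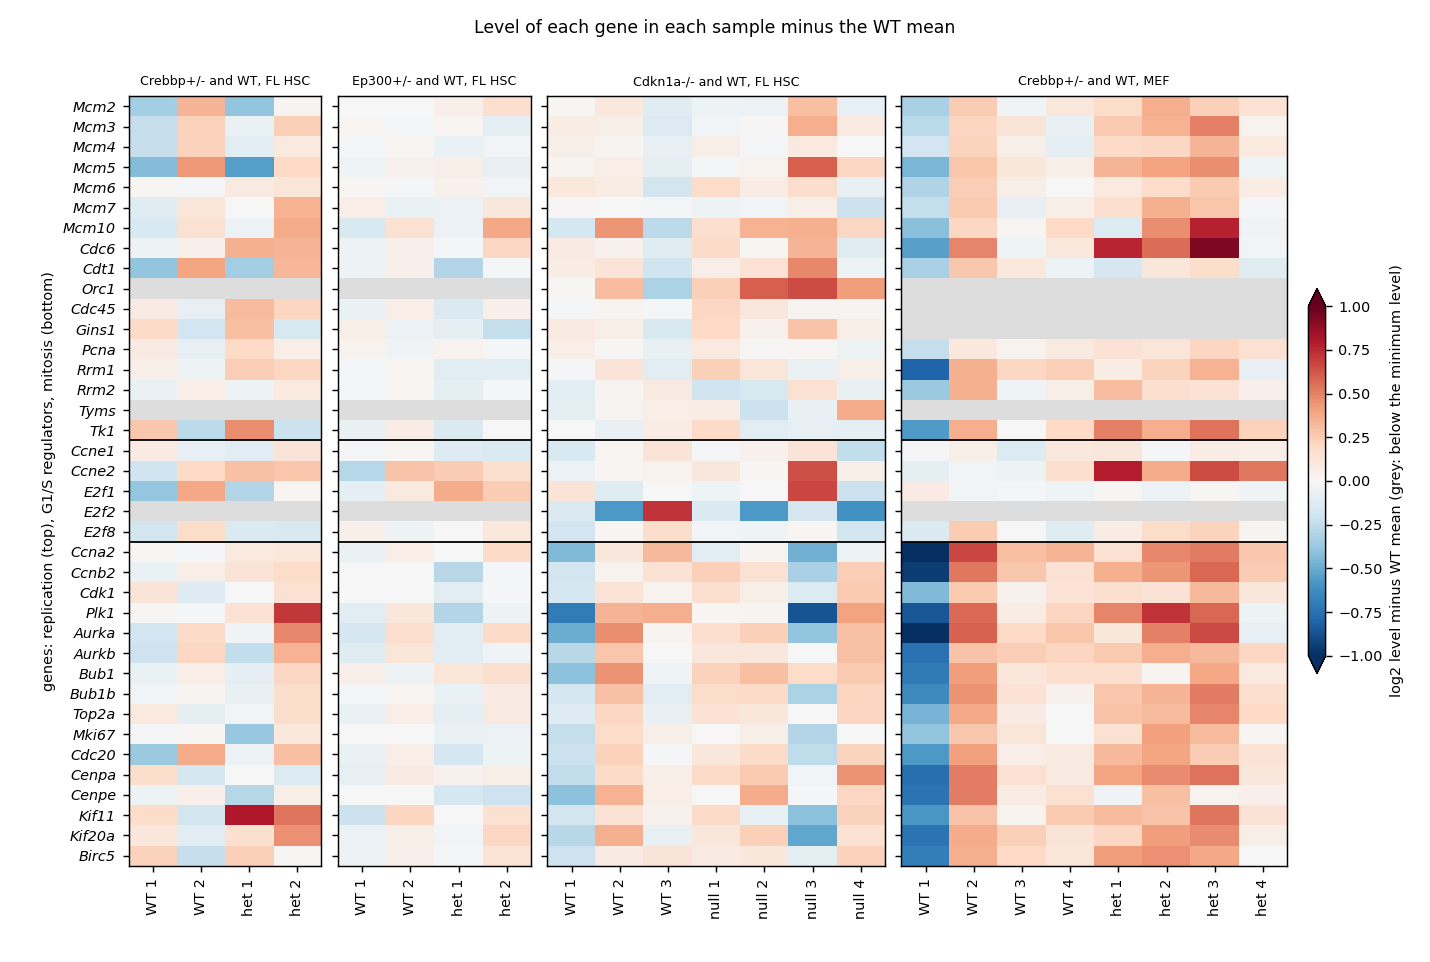
Each cell gives the log2 level of a gene (row) in a sample (column) minus the mean of the WT samples of the same experiment, from blue (lower) to red (higher), with colours saturating at 1 either way and grey for genes below the minimum. WT sample 1 of MEF is blue through the mitosis genes, and null 3 of the Cdkn1a experiment is red for Mcm5, Ccne2 and E2f1 and blue for Plk1, Kif20a and Ccna2.

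In Cdkn1a-/- FL HSC no gene of the module was called through its brightest probe set, and 27 of 38 were higher and 11 lower, with a median of 0.081 beside 0.055 over all probe sets. Of all 20962 probe sets tested, 13033 were higher. Limma called 85 of 20962 probe sets (0.405%), and 1528 had an unadjusted p under 0.05, as did 1 gene of the module. For no gene did the 4 nulls lie all above or all below the 3 WT samples, which happened for 4.80% and 3.08% of probe sets. Without WT sample 3, 30 of 38 were higher and none was called, and without WT sample 1, 18 of 38 were higher.

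Orc1, the largest subunit of the origin recognition complex, had the smallest p. It measured 9.36, 9.65 and 9.03 in WT samples 1 to 3 and 9.58, 9.95, 10.00 and 9.76 in nulls 1 to 4, a difference of 0.48 (standard error 0.18, adjusted p = 0.634). WT sample 3 was the lowest, and without it the difference was 0.32 (adjusted p = 0.926). Mcm10 measured 11.18, 11.79 and 11.09 in WT and 11.52, 11.70, 11.71 and 11.56 in the nulls (0.27, standard error 0.18, adjusted p = 0.720), and Gins1 12.68, 12.65 and 12.44 against 12.79, 12.63, 12.87 and 12.65 (0.15, standard error 0.11, adjusted p = 0.720). Mcm5 measured 13.19, 13.23 and 13.07 in WT and 13.16, 13.20, 13.77 and 13.37 in the nulls (0.21, standard error 0.16, adjusted p = 0.721). Without WT sample 3 the changes were 0.14 for Mcm10, 0.071 for Gins1 and 0.16 for Mcm5. The change of Mcm10 was 0.49 without WT sample 2, and that of Mcm5 0.078 without null 3. Over the replication list WT sample 3, the library with erythroid, hepatocyte and macrophage transcripts, held the lowest of the 7 levels for 12 of 17 genes, and the part of those transcripts in these values was not tested. The list median was 0.091, with 14 of 17 higher, and 0.0425 without that library, 0.054 without null 3 and 0.058 without null 1. Over all probe sets the medians in these left-out fits were 0.016, 0.060 and 0.048. Rrm2 was the lowest of the list at -0.069 (standard error 0.12), with 13.87, 14.01 and 14.08 in WT and 13.78, 13.82, 14.14 and 13.91 in the nulls, and at -0.023 without WT sample 3. Its other probe sets differed by 0.29 (adjusted p = 0.715) and -0.035 (adjusted p = 0.968).

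Of the 5 G1/S regulators 2 were higher and 3 lower. Ccne2 measured 10.14, 10.21 and 10.24 in WT and 10.31, 10.21, 10.85 and 10.26 in the nulls (0.21, standard error 0.17, adjusted p = 0.726), so null 3 alone stood high, and the change was 0.062 without null 3 and 0.23 without WT sample 3. E2f2 measured 9.12, 8.69 and 9.99 in WT and 9.12, 8.69, 9.10 and 8.66 in the nulls (-0.37, standard error 0.31, adjusted p = 0.734). WT sample 3 held the highest E2f2 level, and without it the change was -0.0080 (WT mean 8.90, null mean 8.89).

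Mitosis genes were higher in 11 and lower in 5 of 16, with a median of 0.077, and 0.085 without WT sample 3. Cenpa, the histone of centromeres, measured 12.32, 12.76 and 12.62 in WT and 12.76, 12.82, 12.54 and 13.01 in the nulls (0.22, standard error 0.15, adjusted p = 0.720). The brightest probe set of Bub1 measured 11.90, 12.77 and 12.27 in WT and 12.54, 12.61, 12.50 and 12.57 in the nulls (0.24, standard error 0.20, adjusted p = 0.724). Ccna2, which encodes cyclin A2, was the lowest at -0.15 (standard error 0.21), with 12.53, 13.09 and 13.29 in WT and 12.86, 13.00, 12.49 and 12.92 in the nulls. All 3 overlapped between the genotypes. Without WT sample 3 the changes were 0.24 for Cenpa, 0.22 for Bub1 and 0.0078 for Ccna2. Without WT sample 1 they were 0.093, 0.041 and -0.37, and without WT sample 2 Bub1 differed by 0.47. The other probe set of Ccna2 differed the other way, by 0.11 (adjusted p = 0.795).

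A dimmer probe set of Bub1 was called, the only one called among the 76 probe sets of the module that were tested in this experiment. It measured 7.79, 8.10 and 8.002 in WT and 5.99, 6.41, 6.43 and 6.21 in the nulls, with all 4 nulls below all WT samples. It fell by 1.70 on the log2 scale (standard error 0.14, limma adjusted p = 0.00586), stayed called when any 1 of the 7 samples was left out (adjusted p 0.0164 to 0.0456), and was not called with a block on the sample number, a fit that also leaves out null 4 (change -1.69, adjusted p = 0.154). The gene's 2 probe sets thus differed in opposite directions, and the 4 null levels lay below log2(100), the intensity minimum. The same probe set differed by -0.20 in Crebbp+/- FL HSC (adjusted p = 0.448) and by 0.27 in Ep300+/- FL HSC. Its highest levels there were 6.87 and 6.93, close to the minimum. Those experiments differ from this one in mutation as well as in background (C57BL/6), and the part of either was not tested. Cenpa likewise had a dimmer probe set, with 6.62, 9.07 and 8.07 in WT and 9.56, 9.45, 9.15 and 9.38 in the nulls (1.47, standard error 0.53, adjusted p = 0.616). Its level in WT sample 1 lay just below log2(100). Of the 26 genes with several measured probe sets in this experiment, 10 had changes of both signs.

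Mitosis genes were low against replication genes in 2 of the 7 samples, 1 of each genotype. Relative to the WT means, null 3 had a median of 0.18 over the replication genes and -0.27 over the mitosis genes, and WT sample 1 had 0.014 and -0.24. In the other samples the mitosis median was between 0.038 and 0.23. Null 3 held the highest of the 7 levels for 10 of 17 replication genes and the lowest for 8 of 16 mitosis genes, and WT sample 1 held the lowest for the other 8. E2f1 (11.48 in null 3, 10.59 to 10.80 in the other nulls) and Mcm5 (13.77, 13.16 to 13.37) were high in null 3, while Plk1 (9.62, 10.51 to 10.89) and Kif20a, a kinesin of cytokinesis (11.53, 12.16 to 12.29), were low. The mitosis medians thus spread further within each genotype than the genotypes differed. The list medians of the mitosis genes were 0.17 without null 3 and -0.031 without WT sample 1, beside 0.060 and 0.071 over all probe sets.

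In the lists outside the module, 29 of 41 replication, 42 of 56 mitosis and 8 of 12 E2F and pocket protein genes were higher and none was called. The mitosis genes among them had a median of -0.12 in null 3 and of 0.11, 0.16 and 0.21 in nulls 1, 2 and 4. The smallest p belonged to Rnaseh2a, the catalytic subunit of ribonuclease H2 (0.18, standard error 0.090, adjusted p = 0.715), Nuf2, a kinetochore protein (0.44, standard error 0.18, adjusted p = 0.682), and Lin9, a MuvB subunit (0.22, standard error 0.12, adjusted p = 0.717).

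**Figure D3:**
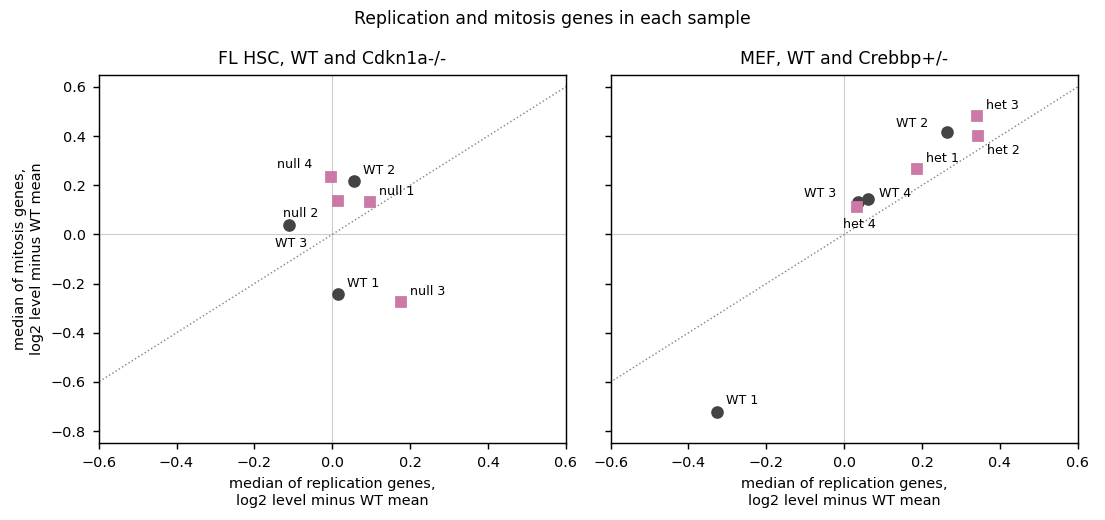
Every point is 1 sample of the Cdkn1a FL HSC experiment (left) or of MEF (right), with the median log2 level of the replication genes minus their WT means on the horizontal axis and that of the mitosis genes on the vertical axis. Circles are WT and squares mutant samples, and the dotted line marks equal medians; null 3 lies at 0.18 and -0.27, and WT sample 1 of MEF at -0.33 and -0.72, while the other 7 MEF samples lie just above the line.

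In Crebbp+/- MEF nearly the whole module was higher than in WT, by less than 1.5-fold, and none of it was called. Of 33 measured genes 32 were higher and 1 lower, with a median of 0.28 beside 0.023 over all probe sets. Limma called 0 of 15502 probe sets (0%), and 1029 had an unadjusted p under 0.05, as did 2 genes of the module. The mutant was higher in all 4 litters for 5 of 33 genes, against 10.2% of all probe sets, and all 4 mutant samples lay above all WT samples for 2 of 33, Ccne2 and Pcna, against 2.19%.

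The difference was uneven over the litters, which was not tested. In litter 1 the median change was 0.52 for the 13 replication genes and 0.93 for the 16 mitosis genes, with all of both lists higher in the mutant. Litter 3 gave 0.28 and 0.28, with 13 of 13 and 15 of 16 higher. Litters 2 and 4 gave 0.014 and -0.0030 for replication and -0.051 and -0.048 for mitosis genes, with 7 and 6 of 13 and 6 and 6 of 16 higher. Over all probe sets the medians in litters 1 to 4 were 0.025, -0.019, 0.049 and 0.024. The WT culture of litter 1 held the lowest of the 8 levels for every measured replication gene (13 of 13) and mitosis gene (16 of 16). Its medians were -0.33 and -0.72 relative to the WT means, against 0.033 to 0.34 and 0.11 to 0.48 in the other 7 cultures. Without litter 1 the medians were 0.12 and 0.069, and 27 of 33 genes were higher. All 8 fibroblast marker genes were lower in Crebbp+/- MEF (median -0.18), with summed levels of 17.16 to 17.30 in WT and 17.08 to 17.22 in the mutant. Macrophage genes summed to 11.3 to 11.6 in WT and 10.7 to 11.1 in the mutant. Of these 8 macrophage genes 3 were lower (median change 0.0071), and 4 reached the minimum. The WT culture of litter 1 had the highest fibroblast sum, 17.304, beside 17.289 in the WT culture of litter 3. By the median over the fibroblast genes minus their WT means, the WT culture of litter 3 was higher (0.18 against 0.11). The part of either marker list in the difference was not tested.

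**Figure D4:**
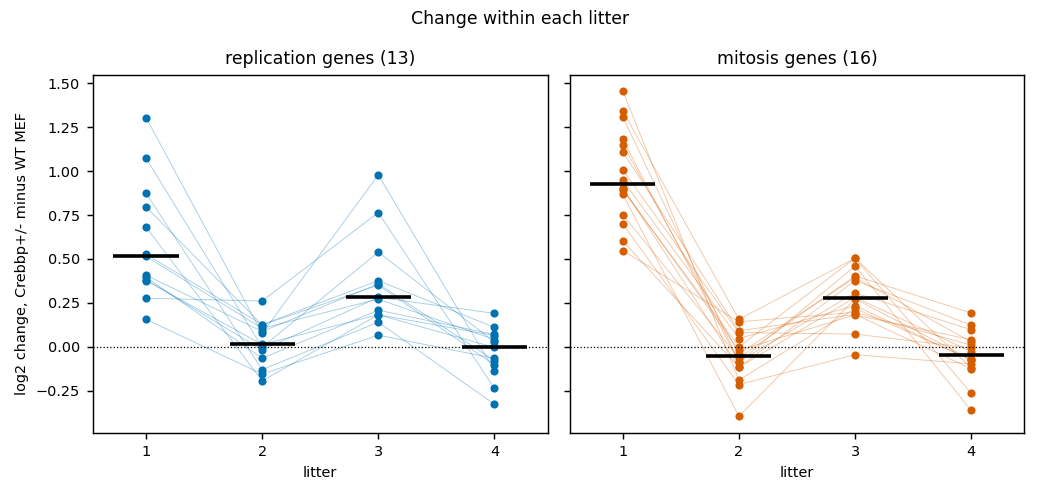
Each dot is the log2 change of 1 gene between the Crebbp+/- and WT fibroblasts of 1 litter, with thin lines joining a gene across litters and a bar at the list median, for 13 replication genes (left) and 16 mitosis genes (right). The bars stand at 0.52 and 0.93 in litter 1 and at 0.28 in litter 3 in both panels, and close to 0 in litters 2 and 4.

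Ccne2 was among the 5 genes higher in every litter, with changes of 0.87, 0.40, 0.70 and 0.36. In litters 1 to 4 it measured 7.46, 7.52, 7.50 and 7.72 in WT and 8.33, 7.92, 8.20 and 8.08 in Crebbp+/- MEF. The change was 0.58 (standard error 0.11, adjusted p = 0.505) over all litters and 0.49 (adjusted p = 0.304) without litter 1, and its adjusted p over all alternatives lay between 0.304 and 1.00. The groups did not overlap, although the test across 15502 probe sets was not passed. The other G1/S regulators had smaller values, with differences of 0.13 for E2f8 and 0.058 for Ccne1. E2f1 was the 1 gene of the module with a lower mean level, at -0.016 (standard error 0.063), with 8.18, 8.07, 8.08 and 8.05 in WT and 8.11, 8.04, 8.11 and 8.05 in the mutant.

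Among the helicase genes, Mcm3 measured 9.61, 10.09, 10.00 and 9.80 in WT and 10.13, 10.22, 10.38 and 9.91 in the mutant (0.29, standard error 0.10, adjusted p = 0.706). Mcm2 measured 9.11, 9.70, 9.41 and 9.55 in WT and 9.63, 9.80, 9.68 and 9.59 in the mutant (0.23, standard error 0.10, adjusted p = 0.752). Both were higher in 4 of 4 litters, by 0.13 and 0.11 for Mcm3 and 0.11 and 0.042 for Mcm2 in litters 2 and 4. Mcm4 measured 9.95, 10.37, 10.21 and 10.05 in WT and 10.34, 10.35, 10.49 and 10.24 in the mutant (0.21, standard error 0.088, adjusted p = 0.751). Cdc6 had the largest mean change of the list, with 5.83, 6.86, 6.33 and 6.48 in WT and 7.14, 6.94, 7.31 and 6.35 in the mutant (0.56, standard error 0.26, adjusted p = 0.760). Of its 8 levels 4 lay below log2(100). Cdt1, which works with Cdc6 at origins, had the lowest change, 0.0013 (standard error 0.080), with 8.72, 9.32, 9.15 and 8.99 in WT and 8.88, 9.16, 9.22 and 8.93 in the mutant.

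Pcna measured 12.17, 12.52, 12.44 and 12.50 in WT and 12.55, 12.53, 12.63 and 12.56 in the mutant (0.16, standard error 0.086, adjusted p = 0.760). In the nucleotide genes litter 1 gave the largest differences. Rrm1 differed there by 0.87 and Tk1, the thymidine kinase of the salvage pathway, by 1.07, against -0.13 and -0.0020 in litter 2.

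Top2a, the topoisomerase that separates sister chromatids, had the smallest p of the mitosis genes, with 9.67, 10.51, 10.21 and 10.13 in WT and 10.42, 10.44, 10.62 and 10.32 in the mutant (0.32, standard error 0.14, adjusted p = 0.753). Mki67 measured 9.41, 10.08, 9.93 and 9.82 in WT and 9.96, 10.22, 10.13 and 9.83 in the mutant (0.22, standard error 0.10, adjusted p = 0.760). Plk1 had the highest mean change of the mitosis genes, with 7.94, 9.36, 8.86 and 9.003 in WT and 9.28, 9.51, 9.37 and 8.74 in the mutant (0.43, standard error 0.26, adjusted p = 0.761). Its changes by litter were 1.34, 0.16, 0.50 and -0.26, with the largest in litter 1. Cenpe had the lowest mean change, 0.086 (standard error 0.17), with 7.19, 8.44, 8.01 and 8.08 in WT and 7.89, 8.23, 7.96 and 7.98 in the mutant. The levels of Cenpe were higher in the mutant in litter 1 alone.

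Outside the module, 35 of 37 other replication genes (median 0.15), 52 of 53 other mitosis genes (0.27) and 9 of 10 other E2F and pocket protein genes (0.057) were higher in Crebbp+/- MEF, and none was called. By litter the other mitosis genes had medians of 0.86, -0.069, 0.21 and 0.010. Rpa2, a subunit of the single-strand binding protein RPA (0.23, standard error 0.079, adjusted p = 0.706), Cenph, a centromere protein (0.30, standard error 0.10, adjusted p = 0.672), and Lin54 (0.22, standard error 0.11, adjusted p = 0.760) had the smallest p in their lists.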

How the data were processed

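RNA of 23 biological samples was read on 31 arrays. Per the labels and methods, 12 ng of FL HSC RNA was amplified before labelling. For MEF the labels give the same kit and the methods unamplified RNA, which was not settled here. The authors deposited GCRMA log2 values (background corrected by probe sequence, quantile normalization within each group of arrays, 1 value a probe set), with no GCRMA version given in the sources used here. From 45101 probe sets, 64 controls were left out. Technical replicates (r 0.989 to 0.994) were averaged. Genes were named from the 34945 probe sets with 1 symbol. The members and lists were chosen with earlier results of these data known.

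Tests used limma 3.58.1 in R 4.3.3 with Benjamini-Hochberg adjustment over all probe sets whose highest sample reached log2(100). The Crebbp and Ep300 FL HSC samples were fitted jointly with a block per pair of same-numbered pools, MEF with a block per litter and Cdkn1a without a block. Deviations from the group means correlated between same-numbered samples at 0.70 (Crebbp), 0.40 (Ep300), 0.19 to 0.46 (MEF) and -0.045 to 0.29 (Cdkn1a). MEF litters are given by the labels, and in FL HSC only the numbers are shared. Nothing in the labels says how pools of 1 number were related. In the Crebbp and Ep300 experiments p-values rest on how mutant minus WT differences vary between the pairs of an experiment, taken over both experiments together. In MEF they rest on how these differences vary between litters, and in the Cdkn1a experiment on the spread between samples of a genotype. Values per sample are given for the 6 genes with the smallest p in each comparison and the highest and lowest of each list, in the Crebbp FL HSC comparison also for Mcm2, Pcna, Rrm2, Cdk1 and Mki67, and for the gene with the smallest p of each further list its change alone. The dimmer probe sets of Bub1 and Cenpa, and in null 3 E2f1, Plk1 and Kif20a, were chosen after their values were seen, as were Pcna, Rrm1 and Tk1 in MEF and the dimmer probe sets in Crebbp+/- FL HSC. The same held for the other probe sets of Rrm2 and Ccna2 in Cdkn1a-/- FL HSC. The scripts were tested on simulated data. Alternatives covered the block, separate fits, the level filter, centring, probe set choice, single technical replicates, a variance trend, the test of the methods and each replicate left out. Precision is limited by how many biological samples there are, to which technical replicates add none.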

Additional observations from a re-analysis of the deposited data

Results flagged for a closer look

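Among 104 gene and group combinations with 4 samples (Cdkn1a nulls, MEF WT and MEF Crebbp+/-), 9 held 1 sample far from the other 3. By chance the rule flags about 1 in 20 independent combinations. These genes share the same samples and so are not independent, and the share over all probe sets was not computed. No excess over chance can therefore be read from the 9. Of the 9, 5 were null 3 of the Cdkn1a experiment. Its level was the highest for Mcm2 (13.24, by 0.35) and Ccne2 (10.85, by 0.53) and the lowest for Ccnb2 (12.11, by 0.48), Bub1b (12.05, by 0.50) and Kif20a (11.53, by 0.63). Null 1 was the highest for Tk1 (12.38, by 0.27). The WT culture of MEF litter 1 was the lowest for Rrm1 (10.47, by 1.01) and Aurkb (7.55, by 0.96), and the Crebbp+/- culture of litter 4 was the lowest for Birc5 (10.21, by 0.39).

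Mcm2 was lower in both Crebbp+/- FL HSC pairs (-0.19) and higher in all 4 MEF litters (0.23), a difference between cell types that was not tested. The values came from different probe sets of Mcm2. The one used in MEF differed by 0.24 in Crebbp+/- FL HSC, the same direction as in MEF. The one used in FL HSC differed by 0.10 in MEF, the opposite direction to FL HSC.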

How the results depend on the processing

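No gene of the module was called in any comparison under most alternatives, and the exceptions were 3. In Crebbp+/- FL HSC 1 gene, Kif11, was called with a variance trend (adjusted p = 0.0162) and 1 gene, Kif11, by the paired test of the methods (0 after Benjamini-Hochberg adjustment), and in Cdkn1a-/- FL HSC 1 probe set, of Bub1, was called when every probe set was counted. Between Crebbp and Ep300, the difference of effects was called for 0 genes under all alternatives run, which were added after seeing the data. Calls over all probe sets moved further. In Crebbp+/- FL HSC 51 became 0 without the replicate block, 0 with the experiment fitted alone, without the filter, with single technical replicates or without either pair, 208 with samples centred, 222 with the mean-level filter and 876 with a variance trend. In the Cdkn1a experiment 85 became 38 with the mean-level filter, 42 without a filter and 38 to 87 with a sample left out, and in MEF 0 became 2 without the block or without litter 1. The test of the methods was run without their filter on Absent calls, and unpaired for Cdkn1a, where the methods give paired tests. It called 199, 11, 548 and 61 probe sets (Crebbp, Ep300, Cdkn1a, MEF), and 0, 0, 141 and 0 after adjustment, with 0 genes of the module in the last 3.

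Removing the replicate block cannot move the medians of these balanced pairs, which were 0.11 and 0.0925 (replication and mitosis) in Crebbp+/- FL HSC, -0.035 and 0.0013 in Ep300+/- FL HSC, and 0.21 and 0.31 in MEF, with 0 genes called. A block on the numbers 1 to 3 in the Cdkn1a experiment, without null 4, gave 0.12 and 0.021, with 0 genes called, and 6 probe sets called in place of 85. In Crebbp+/- FL HSC the replication median was 0.065 with samples centred, 0.16 with technical replicate 1 only and 0.057 to 0.12 with a pair left out.

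The Ep300 medians are small and shifted by more than their spread over 2 pairs. For replication they were -0.012 without the filter, -0.026 centred, -0.062 and 0.054 with technical replicate 1 or 2 only and -0.052 to -0.042 with a pair left out. For mitosis they were 0.010 centred, -0.053 over all probe sets of a gene, 0.014 and -0.025 with technical replicate 1 or 2 only and -0.013 to -0.012 with a pair left out. Cenpe turned to 0.026 with technical replicate 1 only. The cause was not tested. With a litter left out, MEF medians were 0.12 to 0.30 (replication) and 0.069 to 0.41 (mitosis), and with a Cdkn1a sample left out 0.043 to 0.13 and -0.031 to 0.18.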
